A study of Homo sapiens with 6 samples.

Results

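NRF2 (gene NFE2L2), its inhibitor KEAP1 and 7 classical NRF2 targets were followed in MDA-MB-231, a cell line of triple-negative breast cancer, with and without knockdown of the pseudouridine synthase PUS1. The 9 genes were taken by symbol (NFE2L2, KEAP1, NQO1, GCLC, GCLM, HMOX1, TXNRD1, SRXN1 and ME1) from the 60605 genes of the deposited table. Aldo-keto reductases, which are also regulated by NRF2, were left out of the set. Each symbol matched 1 row, and all 9 genes had enough counts to be tested.

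The series holds 3 libraries of cells with a control hairpin (shControl) and 3 of cells with a hairpin against PUS1 (shPUS1). The hairpin against PUS1 was carried by a lentiviral pLKO.1 vector with puromycin resistance, cells were selected and kept in puromycin, and the control hairpin was also delivered by lentivirus. Cells of both arms were grown in RPMI medium with fetal serum. Poly(A) RNA was sequenced. The titles call the libraries of an arm biological replicates. The table labels the knockdown arm with the number 2, and the sources do not say which of the designed hairpins this was or whether the replicates were selected separately, so p-values measure the spread between these libraries, which may be technical.

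NRF2 is a transcription factor that drives genes for antioxidant defence through antioxidant response elements, short DNA motifs that it binds together with a small MAF protein. In unstressed cells KEAP1 hands the NRF2 protein to a CUL3 ubiquitin ligase for degradation, and oxidants or electrophiles stop this, so the amount of NRF2 is set mainly at the protein level. Only mRNA was measured here, and neither NRF2 protein nor its location in the cell was.

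Each library held 14241505 to 19625998 estimated counts. PUS1 was at 6.56, 5.47 and 5.36 CPM (counts scaled to the TMM-adjusted library size) in shPUS1 replicates 1 to 3 and at 14.4, 27.4 and 12.1 CPM in shControl. On the log2 scale PUS1 fell by 1.64 ± 0.32 (standard error), with an adjusted p of 0.0462 in edgeR's quasi-likelihood test and a value of -1.20 (adjusted p = 0.00311) if shControl replicate 2 is left out. shControl replicate 2 stood apart: across genes, Pearson's r of its log2 CPM with the other control libraries was 0.9505 and 0.9521, against 0.981 to 0.9906 for the other pairs within an arm. Log2 fold changes and list medians named here that it moved by over 1.5 times are given with and without it. All 6 MDA-MB-231 markers (VIM, CD44, CAV1, MSN, KRT18, EGFR) were at 189.7 CPM or more in every library. Summed, they were at 3961.1 to 4211.0 CPM in shPUS1 and at 4571.9 to 5560.7 CPM in shControl, and edgeR called 0 of them. Of 6 luminal genes, ESR1, PGR, FOXA1 and CDH1 had at most 10, 4, 1 and 20 counts. GATA3 was at 5.16 to 7.45 CPM and ERBB2 at 51.0 to 73.2 CPM. Of 5 markers of other cell types, CD3E and ADIPOQ had 0 counts and PTPRC at most 2. Their summed level was 31.5 to 35.4 CPM in shPUS1 and 8.22 to 24.1 in shControl, most of it COL1A1 (adjusted p = 0.11 in edgeR), and its part in the results was not tested.

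ME1, the cytosolic malic enzyme that makes NADPH while turning malate into pyruvate, was the only one of the 9 mRNAs to pass the test with all 6 libraries. It was at 77.4, 81.3 and 74.5 CPM in shPUS1 and at 40.1, 34.0 and 34.6 CPM in shControl. The groups did not overlap, and the lowest shPUS1 library was well above the highest control. ME1 rose 2.14-fold (95% interval 1.75 to 2.62, unadjusted for the number of genes), a log2 fold change of 1.10 with a standard error of 0.13 and an adjusted p of 0.0182 (edgeR quasi-likelihood test over 14748 genes, Benjamini-Hochberg). The values rested on 508 to 650 counts per control library and 1264 to 1488 per knockdown library. In bulk RNA, more mRNA per cell and more cells that hold the mRNA cannot be told apart. Under every way of processing that was tried, 14 besides the one reported, the log2 fold change of ME1 lay between 1.02 and 1.18. The adjusted p rose above 0.05 without shPUS1 replicate 1, 2 or 3 (0.154, 0.18 and 0.13) and without shControl replicate 1 (0.0586), and in the fit with the replicate number as a block (0.0735), all from edgeR, and was 0.00113 without shControl replicate 2.

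Of the 9 genes, 1 was called higher (adjusted p under 0.05) and 0 lower, where 1.74% and 0.841% of all tested genes were. ME1 also had a log2 fold change of at least 1, as 0.888% of tested genes did among those called higher. At an unadjusted p under 0.05 there were 4 members (ME1, GCLM, GCLC and NFE2L2), where 25.5% of all tested genes were. The shPUS1 libraries were all above the controls for 4 members, the same genes, against 18.8% of tested genes, and all below them for 1, SRXN1, against 17.3%. The median log2 fold change of the members was -0.02, beside -0.03 over all genes tested. Without shControl replicate 2 it was 0.25, beside -0.02 over all genes.

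**Figure D1:**
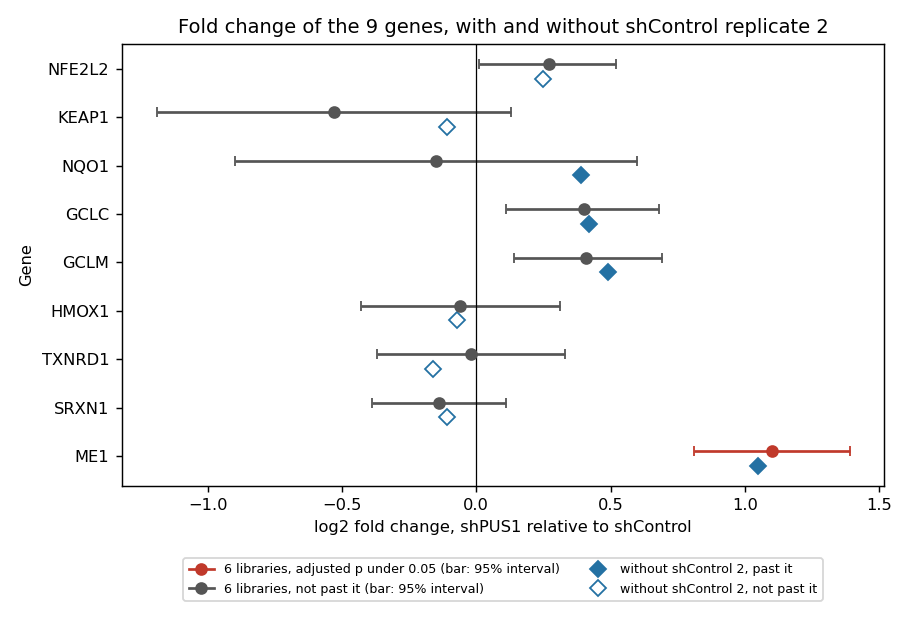
log2 fold change (x axis, shPUS1 relative to shControl) of the 9 genes (y axis). Circles are the edgeR estimates from 6 libraries with 95% intervals, red for an adjusted p under 0.05, and diamonds are the estimates without shControl replicate 2, filled for an adjusted p under 0.05. ME1 lies at 1.10 and 1.05, while NQO1 moves from -0.15 to 0.39.

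A short motif of the kind that NRF2 binds was looked for near the start sites, since classical NRF2 targets are regulated through it. RefSeq promoter windows (GRCh38.p14, 250 bases before to 50 after a start) were at hand for 8 of the 9 genes, 11 windows in all, HMOX1 being the gene without one. The letters TGACNNNGC, on either strand, occurred in 5 of the 11 windows, those of 4 genes: ME1, GCLM, KEAP1 and TXNRD1. They occurred in 13.3% of all 35116 windows and in 14.5% of the windows of tested genes. The stretches below are shown because they let the gene that rose be compared with others that hold the same motif. The distance given for each stretch is that of its first matching base, not of the first letter printed. Each runs 5′ to 3′ on the gene's strand, with the 9 matching bases in capitals:
ME1, from 137 bases before the start: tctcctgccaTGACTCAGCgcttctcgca
GCLM, from 34 bases before the start: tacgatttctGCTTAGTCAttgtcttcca
KEAP1, from 31 bases before the start: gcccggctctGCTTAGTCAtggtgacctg
TXNRD1, from 99 bases before the start: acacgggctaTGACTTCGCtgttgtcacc

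The ME1 stretch lies at chr6:83431170-83431198 (minus strand), the GCLM stretch at chr1:93909446-93909474 (minus strand), the KEAP1 stretch at chr19:10502784-10502812 (minus strand) and the TXNRD1 stretch at chr12:104215670-104215698 (plus strand). ME1 and KEAP1 each hold a further match in the same window and TXNRD1 holds 2 more in its windows, which are not printed. In the printed stretches of ME1 and TXNRD1 the motif reads along the gene, and in those of GCLM and KEAP1 along the opposite strand. The matches not printed read the other way, along the gene in KEAP1 and along the opposite strand in ME1 and TXNRD1. GCLM and KEAP1 hold the same 9 letters. Of the 4 stretches, the ME1 match alone also holds TGANTCA, the motif of AP-1 factors, which occurred in 7.71% of all windows. Of the 4 genes, ME1 passed the test with all libraries and GCLM, KEAP1 and TXNRD1 did not. A match is a description of the letters, and elements farther from the start were not looked for.

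GCLC and GCLM, the catalytic and the modifier subunit of glutamate-cysteine ligase, which carries out the rate-limiting step of glutathione synthesis, were 1.32-fold and 1.33-fold more abundant in shPUS1 but did not pass the test with 6 libraries. GCLC was at 42.3, 45.9 and 46.5 CPM in shPUS1 and at 35.2, 35.3 and 31.6 CPM in shControl. Every knockdown library was above every control, and edgeR put the log2 fold change at 0.40 ± 0.12 (standard error) with an adjusted p of 0.109. GCLM was at 156.2, 146.1 and 149.0 CPM against 109.7, 124.8 and 104.1 CPM. Here too the groups did not overlap, with 0.41 ± 0.12 for the log2 fold change and an adjusted p of 0.0922 in edgeR. Their ratio in FPKM (reads scaled to exonic length and library size), GCLM over GCLC, was 5.87, 5.06 and 5.10 in shPUS1 and 4.94, 5.61 and 5.22 in shControl, so the subunits' mRNAs kept overlapping proportions in both arms.

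Both subunits passed an adjusted p of 0.05 under 3 of the 14 alternatives. Without shControl replicate 2 the adjusted p was 0.0272 for GCLC and 0.00991 for GCLM in edgeR, with log2 fold changes of 0.42 and 0.49. DESeq2 on all libraries gave 0.0431 and 0.024, and limma voom with sample weights 0.042 and 0.0064. Over all alternatives the log2 fold change stayed positive, from 0.31 to 0.43 for GCLC and from 0.35 to 0.49 for GCLM.

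NQO1, a reductase that turns quinones into hydroquinones and is a common readout of NRF2 activity, had a direction that 1 library decided. It was at 107.9, 102.3 and 104.2 CPM in shPUS1 and at 83.3, 188.7 and 76.2 CPM in shControl. The knockdown libraries lay close together and between the control libraries, of which replicate 2 was 2.37 times the mean of the other controls. With all 6 libraries it had a log2 fold change of -0.15 ± 0.32 (standard error, 95% interval -0.90 to 0.60, adjusted p = 0.795 from edgeR). Without shControl replicate 2 it was 0.39, with an adjusted p of 0.0251, and every remaining control was below every knockdown library. The weighted fit of limma voom, which gave that library a weight of 0.101, put the log2 fold change at 0.33 with an adjusted p of 0.102. The other 12 alternatives left it negative, down to -0.38 without shControl replicate 3.

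NFE2L2, the NRF2 gene itself, was at 153.9, 151.7 and 168.5 CPM in shPUS1 and at 136.9, 130.2 and 126.8 CPM in shControl. The groups did not overlap, but the difference was small, 1.20-fold (95% interval 1.01 to 1.44), a log2 fold change of 0.27 with a standard error of 0.11. The adjusted p was 0.183 (edgeR), and between 0.101 and 0.449 under the alternatives, none of which called it.

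KEAP1, the adaptor that brings NRF2 to the CUL3 ligase, was at 48.1, 46.7 and 46.3 CPM in shPUS1 and at 56.7, 103.0 and 44.2 CPM in shControl. The groups overlapped, since shControl replicate 3 was the lowest of the 6 libraries and replicate 2 the highest, at 2.04 times the mean of the other controls. Over all libraries its log2 fold change was -0.53 ± 0.29 (standard error, 95% interval -1.19 to 0.13, adjusted p = 0.279 from edgeR), and -0.11 (adjusted p = 0.565) without shControl replicate 2. In the same library, the FPKM of NFE2L2 over that of KEAP1 was 0.796, against 1.52 and 1.81 in the other controls and 2.02, 2.05 and 2.29 in shPUS1. All knockdown libraries therefore had a higher ratio than all controls, the nearest being 2.02 and 1.81, though neither gene passed the test. Of single tested genes, 18.8% were higher and 17.3% lower in every shPUS1 library, and the share among ratios was not tested. ME1 over NQO1 also separated, at 0.638, 0.708 and 0.637 in shPUS1 and 0.429, 0.16 and 0.404 in shControl.

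HMOX1, TXNRD1 and SRXN1 did not pass the test, and none of them was called under any alternative. HMOX1, haem oxygenase, which also answers to the repressor BACH1, was at 11.7, 10.5 and 10.6 CPM in shPUS1 and at 12.0, 11.4 and 10.8 CPM in shControl. Its groups overlapped, with a log2 fold change of -0.06 whose 95% interval, -0.43 to 0.31, covers changes from 0.741-fold to 1.24-fold. HMOX1 rested on 159 to 217 counts per library, the fewest of the 9 genes.

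TXNRD1, the cytosolic thioredoxin reductase, was at 806.4, 729.7 and 716.5 CPM in shPUS1 and at 866.1, 613.9 and 804.5 CPM in shControl. shControl replicate 2 was the lowest library, at 0.735 times the mean of the other controls, so that here it stood on the opposite side from NQO1 and KEAP1. The log2 fold change was -0.02 (95% interval -0.37 to 0.33, adjusted p = 0.942 from edgeR). It was -0.16 (adjusted p = 0.253) without shControl replicate 2, and its sign changed when shControl replicate 1 or 3 or shPUS1 replicate 2 or 3 was left out. The processed pseudogene RPL18AP3 lies within TXNRD1 on the same strand with 794 to 1269 counts per library, up to 10.8% of TXNRD1's, and a gene on the opposite strand had up to 2.32%.

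SRXN1, sulfiredoxin, which repairs overoxidized peroxiredoxins, was the member with lower values in every knockdown library. It was at 92.3, 89.4 and 88.0 CPM in shPUS1 and at 99.6, 104.2 and 93.2 CPM in shControl, a gap of less than 1 CPM between the nearest libraries. edgeR gave a log2 fold change of -0.14 ± 0.11 (standard error, 95% interval -0.39 to 0.11, adjusted p = 0.446 from edgeR). Of its 100-base stretches, 84.5% also belong to an overlapping gene in GENCODE release 29, to which the deposited table gave 0 counts. How shared reads were counted is not given in the sources used here, so the level of SRXN1 is uncertain. Such sharing was 8.83% for NFE2L2, 4.77% for GCLC and 0% for the others.

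**Figure D2:**
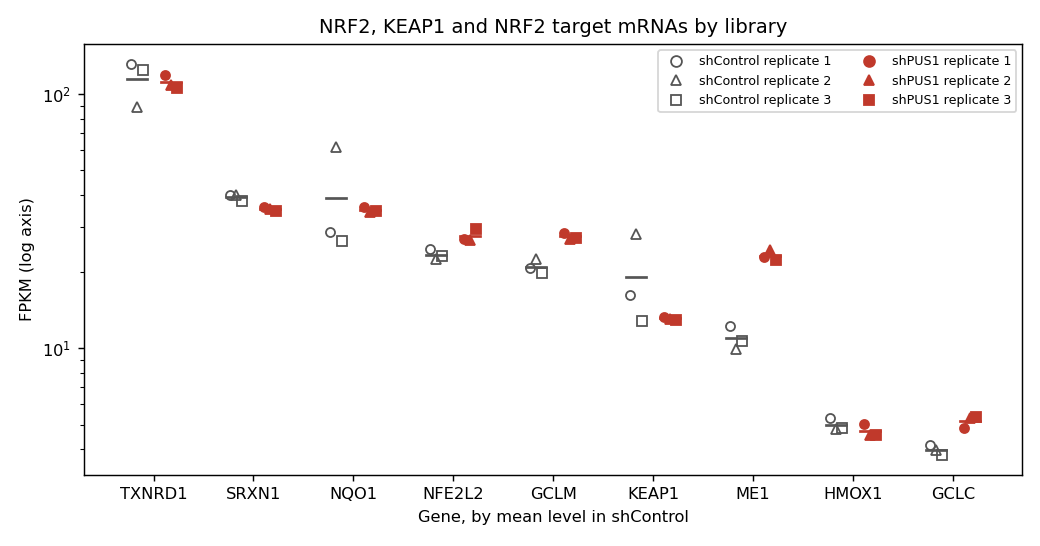
FPKM (y axis, log scale) of the 9 genes (x axis, in order of their shControl mean). Open grey symbols are shControl and filled red symbols shPUS1 libraries, with the shape giving the replicate and a line the mean of 3. ME1, the GCL subunits, NFE2L2 and SRXN1 separate by arm, with SRXN1 lower in shPUS1. In contrast, shControl replicate 2 (open triangle) lies far above the other controls for NQO1 and KEAP1 and below them for TXNRD1.

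On the scale per length (FPKM), the order of the members was led by TXNRD1 in both arms, at 114.8 ± 22.7 in shControl and 111.0 ± 6.72 in shPUS1 (SD, n = 3 each). In shControl, SRXN1 (39.4 ± 1.23) and NQO1 (39.0 ± 19.8) came next and overlapped each other, followed by NFE2L2 (23.3 ± 1.16), GCLM (20.9 ± 1.32) and KEAP1 (19.0 ± 8.04), each overlapping its neighbour. ME1 (11.0 ± 1.19), HMOX1 (4.97 ± 0.275) and GCLC (3.98 ± 0.190) closed the order without overlap. In shPUS1 the level of ME1 was 23.1 ± 1.11 FPKM, above KEAP1 (13.1 ± 0.215) and below GCLM (27.5 ± 0.802), with overlap to neither. GCLC (5.16 ± 0.280) stood above HMOX1 (4.70 ± 0.277) in shPUS1, with overlapping libraries, where in shControl it was below without overlap.

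How many of the members were called moved with the libraries and the tool, as did the share of all genes called. Without shControl replicate 2, 4 members were called, all higher (ME1, GCLM, GCLC and NQO1), where 18.6% of tested genes were called in either direction. DESeq2 called 3, with 12.7% of all genes, and limma voom with sample weights 3, with 21.0%; in both these were ME1, GCLM and GCLC. Leaving out shControl replicate 3 left 1 member, ME1, with 3.14% of genes called. No member was called with the replicate number as a block (0.122% of genes), without shControl replicate 1 or shPUS1 replicate 1 (0.0726% of genes each), without shPUS1 replicate 2 (0.0398%) or without shPUS1 replicate 3 (0% of genes, and 2581 genes at an unadjusted p under 0.05 in edgeR). In these last settings hardly any gene in the table was called, where 2.58% were with all 6 libraries. Most calls were thus lost there, and ME1 was not among the few genes still called.

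**Figure D3:**
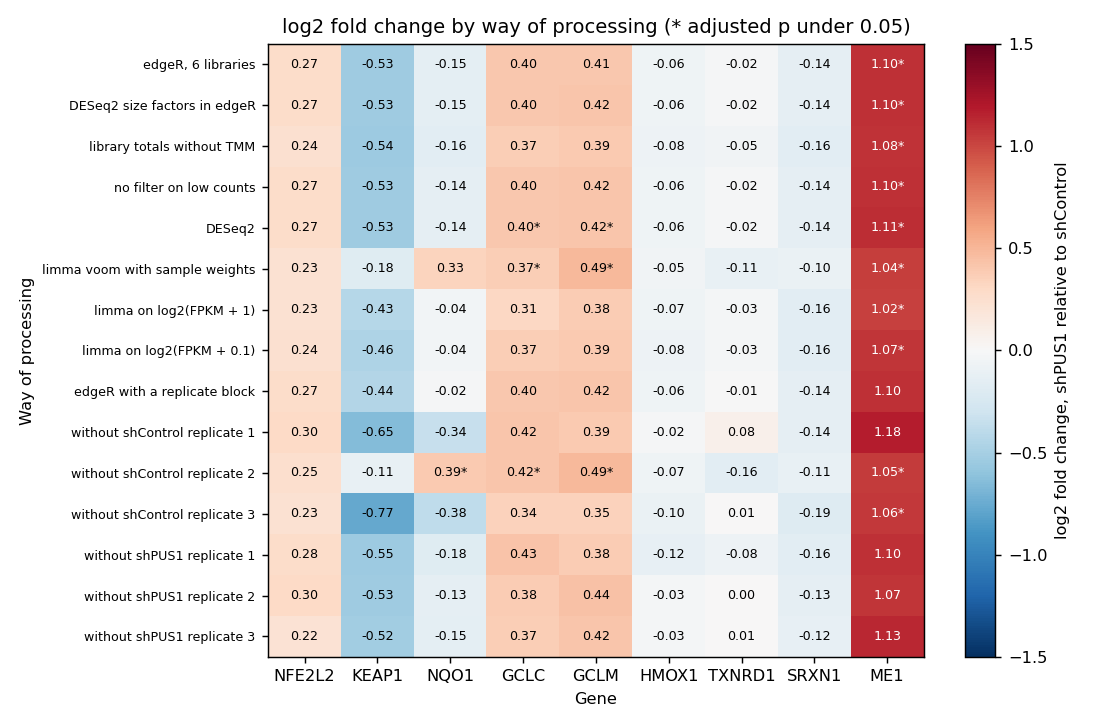
log2 fold change (cell values and colours, shPUS1 relative to shControl) of the 9 genes (x axis) under 15 ways of processing (y axis), with an asterisk for an adjusted p under 0.05. The column of ME1 stays between 1.02 and 1.18, and that of NQO1 is positive only in the voom fit with sample weights and without shControl replicate 2.

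Other genes of the pathway were taken from 7 lists, 83 genes in all, of which 79 were tested. EPHX1 was called higher and CBR3 lower, a share near that of all tested genes, and 77 were not called. The median log2 fold change was 0.12. EPHX1, the microsomal epoxide hydrolase, rose from 38.3 ± 5.77 CPM in shControl to 73.4 ± 5.96 CPM in shPUS1 (SD, n = 3 each), which is 0.94 ± 0.15 (standard error) on the log2 scale with an adjusted p of 0.0341 in edgeR. CBR3, a carbonyl reductase and also a known NRF2 target, went the other way, from 8.75 ± 2.70 CPM in shControl to 3.37 ± 0.413 in shPUS1. On the log2 scale CBR3 fell by 1.38 ± 0.27 (standard error), with an adjusted p of 0.0467 in edgeR. These belong to the list of quinone and xenobiotic metabolism and export, of which 15 of 18 genes were tested and 13 were not called (median 0.24).

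The list of NRF2 partners and regulators had 15 genes tested, 0 called by edgeR and 7 at an unadjusted p under 0.05, where 25.5% of all tested genes were. Its median log2 fold change was 0.46, and 0.25 without shControl replicate 2. MAFG, a small MAF partner of NRF2, had a mean of 96.9 ± 14.7 CPM in shControl against 152.7 ± 11.3 CPM in shPUS1 (log2 fold change 0.66, adjusted p = 0.0575 from edgeR). The values of GSK3B and BTRC, a kinase and a ubiquitin ligase subunit that act on NRF2 apart from KEAP1, were 0.56 (adjusted p = 0.0729) and 0.39 (adjusted p = 0.122) in edgeR. RBX1, a subunit of the CUL3 ligase, had -0.58 (adjusted p = 0.108 in edgeR). BACH1, the repressor that competes for the same elements, was at 131.1, 55.5 and 143.2 CPM in shControl and 153.7, 175.3 and 146.3 CPM in shPUS1 and is named, outside the naming rule, because shControl replicate 2 was low there as for TXNRD1. Its log2 fold change was 0.53 (adjusted p = 0.324 in edgeR), and 0.20 (adjusted p = 0.213) without that library.

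In the glutathione list 15 of 16 genes were tested and 0 were called by edgeR, with 2 at an unadjusted p under 0.05 (median log2 fold change -0.17). SLC7A11, the cystine carrier that feeds glutathione synthesis, had 0.64 on the log2 scale (adjusted p = 0.0887), and the glutathione transferases MGST2, GSTP1 and MGST3 had -0.82, -0.32 and 0.25 (adjusted p = 0.0781, 0.198 and 0.231, all edgeR). Among 9 genes of NADPH supply, which share this product with ME1, edgeR called 0, with 1 at an unadjusted p under 0.05 (median 0.02). The mitochondrial malic enzyme ME3 had 0.37 (adjusted p = 0.16), IDH2 -0.49 (adjusted p = 0.234) and IDH1 0.12 (adjusted p = 0.526) in edgeR. The rise of ME1 was thus not accompanied by a call among these genes.

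Of 11 thioredoxin and peroxiredoxin genes, edgeR called 0, with 2 at an unadjusted p under 0.05 and a median log2 fold change of -0.11. PRDX3, the mitochondrial peroxiredoxin, had -0.39 (adjusted p = 0.122), TXN2 -0.54 (adjusted p = 0.191), TXN -0.57 (adjusted p = 0.234) and TXNRD2 0.30 (adjusted p = 0.252) in edgeR. Without shControl replicate 2, which was the highest library for both, TXN had -0.18 (adjusted p = 0.361) and TXN2 -0.26 (adjusted p = 0.198). Among 10 haem and iron genes edgeR also called 0, with 3 at an unadjusted p under 0.05 (median 0.19). FECH, which inserts the iron when haem is made, had -0.98 (adjusted p = 0.0562 in edgeR). The ferritin chains FTH1 and FTL had 0.47 and 0.24 (adjusted p = 0.0928 and 0.214), with 0.44 for the haem carrier SLC48A1 (adjusted p = 0.173), all in edgeR. The 4 superoxide dismutase and catalase genes had a median of 0.08 and 0 calls in edgeR, with 1 at an unadjusted p under 0.05. That gene was CAT, at -0.61 (adjusted p = 0.0671 from edgeR).

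Without shControl replicate 2, 10 of the 79 pathway genes were called higher and 6 lower by edgeR, beside 18.6% of all genes tested, so this count was close to the background. The list medians were then -0.06 for glutathione, -0.05 for thioredoxin and peroxiredoxin, 0.06 for NADPH supply and -0.04, with the sign turned, for superoxide dismutases and catalase, and GSTP1 had -0.19 (adjusted p = 0.158 in edgeR). The higher genes were EPHX1, MAFG, MAFK, GSK3B, SLC7A11, ME3, FTH1, OSGIN1, TRIM16L and ABCC3. The lower genes were CBR3, RBX1, MGST2, IDH2, FECH and CAT. Known NRF2 targets thus stood on both sides, for example SLC7A11, FTH1 and OSGIN1 among the 10 higher genes and CBR3 among the 6 lower. The targets on each side were not counted, so these examples do not give their balance. Of the 9 members, this fit called 4 higher and 0 lower.

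**Figure D4:**
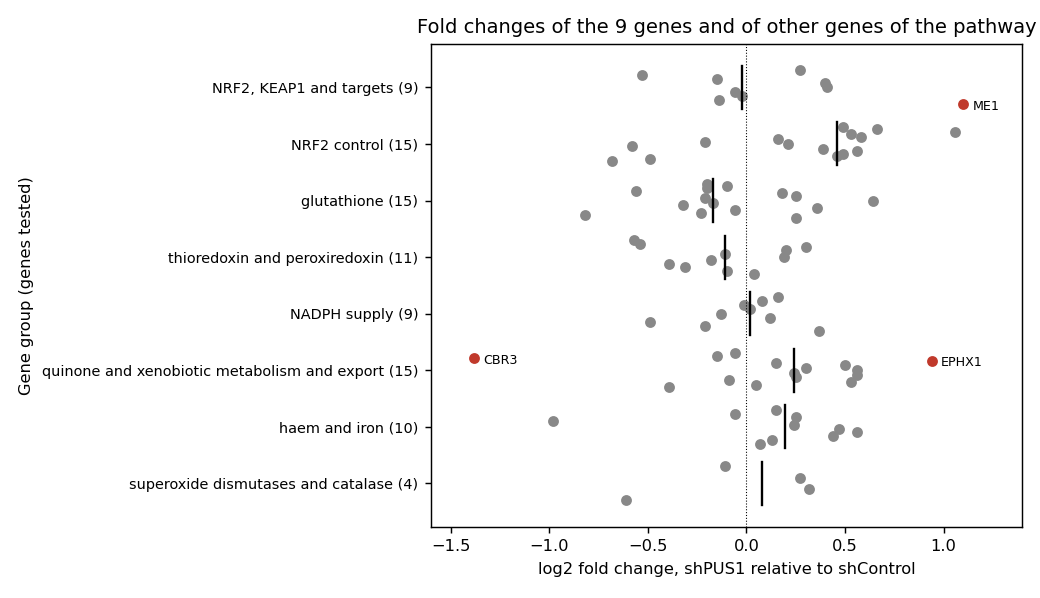
log2 fold change (x axis, shPUS1 relative to shControl, edgeR, 6 libraries) of each tested gene in the set of 9 and in the 7 pathway lists (y axis, with the number of genes tested). Red points have an adjusted p under 0.05 and are named, and black bars are medians, from -0.17 (glutathione) to 0.46 (NRF2 control).

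The genes whose pattern over the 6 libraries was most like that of NFE2L2 were CAB39L, RTN4 and UBE2Q1, with root mean square differences of centred log2 CPM of 0.029, 0.030 and 0.036, out of 9747 genes compared. For KEAP1 they were RRP1, PRMT3 and NDC1 (0.038, 0.045 and 0.050), and for NQO1 they were ALG1, PPP2R1B and ZMPSTE24 (0.062, 0.064 and 0.067). None of these 9 genes was a member or stood in a pathway list. In the annotation of the deposited table all 9 members carry the term cytosol, and 5 of them (GCLC, GCLM, NQO1, SRXN1 and TXNRD1) carry response to oxidative stress, while ME1 does not.

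The genes lie on 8 chromosomes of GRCh38, with coordinates as in the deposited table. ME1 (ENSG00000065833, 83210402 to 83431051) and GCLC (ENSG00000001084, 53497341 to 53616970) are both on chromosome 6, far apart. GCLM (ENSG00000023909) is on chromosome 1 from 93885199 to 93909456, and NFE2L2 (ENSG00000116044) on chromosome 2 from 177227595 to 177392697. TXNRD1 (ENSG00000198431) is on chromosome 12 from 104215779 to 104350307, and NQO1 (ENSG00000181019) on chromosome 16 from 69706996 to 69726668. KEAP1 (ENSG00000079999) is on chromosome 19 from 10486125 to 10503558, SRXN1 (ENSG00000271303) on chromosome 20 from 646615 to 653200 and HMOX1 (ENSG00000100292) on chromosome 22 from 35380361 to 35394214. The deposited table does not name its build, and these positions equal those of GENCODE release 29 (GRCh38) for 3 of the 9 genes and differ by at most 283 bases for the rest.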

How the data were processed

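Poly(A) RNA of 3 shControl and 3 shPUS1 libraries was sequenced in pairs of reads. Per the labels and the methods, the authors aligned reads with HISAT2 and counted them per gene with HTSeq 0.6.1. The build, annotation release and strand setting are not given in the sources used here. The deposited values are estimated counts, without normalization, and between 29.8% and 31.8% of those above 0 were not whole. How such values arose from the stated counting is not given in the sources either. The authors' FPKM values divide these counts by exonic length in kilobases and by the library total. Library totals were 14241505 to 19625998 counts.

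Counts were rounded, filtered with filterByExpr (14748 genes), scaled by TMM and compared in R 4.3.3 by edgeR 4.0.16 (quasi-likelihood). The fit covered all tested genes and p was adjusted over them by Benjamini-Hochberg, with a gene called at an adjusted p under 0.05. Alternatives were DESeq2 1.42.0, limma 3.58.1 (voom with sample weights, and log2 FPKM with pseudocounts of 1 and 0.1 for genes whose mean FPKM reached 1), other scalings, no filter, a fold threshold, a replicate block and each library left out. The test was also run on simulated data. Stretches of 100 bases were compared between genes in GENCODE release 29, and tables were made with pandas 2.3.3.

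Named genes were the members, PUS1, the called genes of each pathway list or else up to 4 with the smallest p, and the 3 genes nearest to NFE2L2, KEAP1 and NQO1 among those with a mean of at least 10 CPM. A gene that this rule names is not reported here. The members and lists were chosen with earlier results of these data known, so no p was adjusted over a list.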

Additional observations from a re-analysis of the deposited data

How the results depend on the processing

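Of the 9 members, 1 was called with all libraries. Leaving out 1 library at a time gave 0 to 4 members, 4 only without shControl replicate 2. DESeq2 and limma voom with sample weights gave 3 each, and a replicate block 0. Of the 79 other pathway genes, 2 were called, and 0 to 16 with 1 library left out (16 without shControl replicate 2). DESeq2 called 12 (12.7% of all tested genes were), voom with sample weights 20 (21.0%), the fit with no filter on low counts 8 (4.75%), a fold threshold 1 and the replicate block 0. The remaining alternatives kept these counts within 1.5 times. For NQO1 the log2 fold change changed sign in the voom fit (0.326), and leaving out single libraries spread it from -0.38 to 0.387. That of TXNRD1 spread from -0.16 to 0.081 in the same way. Over the members' single values, 109 kept direction and side of the threshold, 6 gained and 5 lost the call with the direction kept, and 6 changed sign, of which NQO1 without shControl replicate 2 also gained the call.

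Replicate numbers showed no sign of pairing. Across genes, deviations from the arm means correlated at -0.0529, -0.0256 and -0.19 between a control and a knockdown library that share a number. Each arm mean came from 3 libraries, shControl replicate 2 among them, so these values are not independent and cannot exclude a pairing. With the replicate block 18 genes (0.122% of those tested) were called in all, and ME1 had an adjusted p of 0.0735 at a log2 fold change of 1.10. Leaving out shControl replicate 2 moved KEAP1 from -0.53 to -0.11 and NQO1 from -0.15 to 0.39, and the cause was not tested. Scalings moved the median of all genes by less than 0.1.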
